A study of Mus musculus with 8 samples.

Results

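The fibroblasts of arthritic mouse joints were set against those of healthy joints, and the change in every gene was split into a part that went with the mix of fibroblast classes and a part that lay within the classes. The cells were those that the deposited annotation placed in 1 of 5 fibroblast classes, named lining, Mmp3+, Il6+, Cd200+ and Pi16+. They numbered 6446 of the 24227 annotated cells of the series, 4743 from 3 arthritic and 1703 from 3 healthy animals. The arthritic animals, of the strain B6-Tg(TNF)197Gkl, carried the human TNF transgene hTNFtg197, had received Il23mc for 9 days and had no inhibitor. The healthy animals were wild type and untreated, so that the transgene and Il23mc differed together and cannot be told apart here. All animals were 8 to 10 weeks old, and cells came from the synovium of ankle and wrist joints. Hashtag antibodies, which label the cells of an animal with a DNA barcode, marked 4 animals in each droplet library: the 3 arthritic animals shared a library with healthy animal 1, and healthy animals 2 and 3 came from the libraries of arthritic animals given anti-hTNF or anti-mIL-17a. Library and group can therefore be told apart only through healthy animal 1.

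The synovium is a thin membrane with a lining of fibroblasts that secrete lubricin (Prg4) and hyaluronan into the joint fluid, over a sublining of connective tissue fibroblasts around vessels. Fibroblasts marked by Pi16 and Dpp4 lie in the connective tissue of many organs and are often described as a reserve from which specialised fibroblasts arise. In arthritis driven by TNF and by the IL-23 and IL-17 axis, synovial fibroblasts are known as a source of matrix proteases, neutrophil-attracting chemokines, acute phase proteins, complement and the osteoclast signal RANKL (Tnfsf11).

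The promoters of 4 genes on which the results turn are shown because 3 of them rose within classes and the other, Pi16, changed in opposite ways within classes and through the class mix. The sequences are from RefSeq (GRCm38.p6) and run from 250 bases before to 50 bases after the transcription start, 5′ to 3′ on the strand of the gene. Capitals mark a match to TTGCNNAA, a short form of the site bound by C/EBP factors, on either strand. The windows are chr5:95956689-95956988 on the plus strand for Cxcl13, chr7:46715627-46715926 on the minus strand for Saa3, chr17:57228087-57228386 on the minus strand for C3 and chr17:29318632-29318931 on the plus strand for Pi16.
Cxcl13: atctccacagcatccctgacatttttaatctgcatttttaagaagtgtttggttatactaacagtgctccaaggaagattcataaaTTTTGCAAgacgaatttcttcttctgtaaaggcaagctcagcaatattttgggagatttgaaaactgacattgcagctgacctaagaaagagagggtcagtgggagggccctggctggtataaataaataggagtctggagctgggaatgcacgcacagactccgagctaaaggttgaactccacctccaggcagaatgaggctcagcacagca
Saa3: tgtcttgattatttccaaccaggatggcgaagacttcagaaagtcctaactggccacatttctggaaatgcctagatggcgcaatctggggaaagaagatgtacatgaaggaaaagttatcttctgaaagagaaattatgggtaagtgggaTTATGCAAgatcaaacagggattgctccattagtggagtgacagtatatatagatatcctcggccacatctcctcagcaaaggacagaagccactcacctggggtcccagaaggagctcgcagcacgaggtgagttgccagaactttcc
C3: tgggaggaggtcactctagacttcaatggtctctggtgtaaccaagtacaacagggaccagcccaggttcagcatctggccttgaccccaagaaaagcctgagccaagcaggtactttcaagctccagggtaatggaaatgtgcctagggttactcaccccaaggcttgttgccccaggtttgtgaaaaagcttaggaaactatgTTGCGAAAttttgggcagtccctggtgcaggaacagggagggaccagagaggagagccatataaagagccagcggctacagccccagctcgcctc
Pi16: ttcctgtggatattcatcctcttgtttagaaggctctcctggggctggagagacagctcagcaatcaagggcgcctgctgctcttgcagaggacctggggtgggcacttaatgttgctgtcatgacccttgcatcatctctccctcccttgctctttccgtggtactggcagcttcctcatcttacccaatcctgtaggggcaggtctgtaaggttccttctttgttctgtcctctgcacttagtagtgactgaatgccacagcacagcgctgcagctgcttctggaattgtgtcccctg
The letters of the Pi16 window held no match, which says nothing about the factor. Among the 10908 tested genes with a promoter entry, 10.1% held TTGCNNAA in this window. It was held by 101 of 531 genes (19.0%) that rose within classes by at least 0.5 on the log2 scale and by 14 of 195 (7.18%) that fell by that much. The share was 21.3% (26 of 122) among genes that rose with the class mix and 12.6% (34 of 269) among those that fell with it. All 7 acute phase and iron genes with an entry (Saa1, Saa2, Saa3, Lcn2, Orm2, Cp and Steap4) held it, some of them close copies of each other, and so did 4 of 8 complement genes (C1ra, C1rb, C1s1 and C3). A short NF-kB type motif, GGANTTTCC on either strand, was held by 1.71% of the same tested genes and by 5 of 19 cytokine and chemokine genes, Il6, Csf1, Cxcl1, Cxcl2 and Cxcl10. The 5 were counted whether or not they changed. The motif was held by 3.77% of within-class rises and 4.1% of within-class falls, and by 0.82% of share rises and 2.6% of share falls. None of the acute phase, complement and matrix degradation genes with an entry held it. These counts are descriptions of letters, with motifs chosen after values were known.

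Fibroblast depth was 12952645 to 33132051 UMIs (unique molecular identifiers, 1 per captured transcript) per arthritic animal and 4508588 to 7307067 per healthy animal. Levels of marker genes went with the class names, but the classes were made from expression, so these levels do not check the labels. In healthy animals Prg4 stood at 73308 counts per 1000000 UMIs (CPM) in the lining class and at most 7469 elsewhere. Dpp4 stood at 52.0 CPM in the Pi16+ class and at most 2.63 elsewhere, and Cd200 at 365 CPM in the Cd200+ class. In arthritic animals Mmp3 was also high in the lining class, at 16744 CPM beside 25671 in the Mmp3+ class. The fibroblast gene Dcn had a mean of 3973 CPM or more in every class of both groups, while the sublining marker Thy1 had a mean of 3.89 CPM or less in the lining class. The transgene is not part of the mouse genome build used, so the genotype was not checked through it. Healthy animals 2 and 3 held cells of both sexes: 19.8% and 16.2% of their fibroblasts had Y-linked and no Xist transcripts, though Xist was the majority there and in healthy animal 1. Of the arthritic animals, 2 was mostly Y-linked and 1 and 3 mostly Xist. Of those Y-only cells 38.3% and 38.8% were Pi16+, against 46.9% and 43.2% of the Xist-only cells of the same animals. The Mmp3+ class held 6.54% of the Y-only and 0.28% of the Xist-only cells of healthy animal 2, and none of the Y-only and 3.6% of the Xist-only cells of healthy animal 3. Of the 17 Mmp3+ cells of healthy animal 2, 58.8% went against its sex, and the animal's hashtag led by raw counts in 11.8%. In healthy animals 1 and 3 none of the 16 and 24 Mmp3+ cells went against the sex, and the hashtag led in 6.25% and 12.5%. Of these cells 7 and 14 had neither Y-linked nor Xist transcripts and could not go against it. Both libraries also held other mostly Xist animals, whose cells this count could not tell apart. By raw counts the hashtag of the healthy animal led in only 34.8%, 22.7% and 9.93% of the cells assigned to healthy animals 1, 2 and 3, and in all of them after each hashtag was scaled over its library. Libraries shared at most 1 barcode with each other. Of 261 gene results below that passed their test, 229 passed without the cells that went against their animal's sex, and of 251 that could be refitted with healthy animal 1 alone 189 passed.

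The class mix differed strongly between the groups. Pi16+ cells were 1.40%, 0.933% and 1.25% of the fibroblasts in the 3 arthritic animals and 44.2%, 42.9% and 41.9% in the 3 healthy animals. Mmp3+ cells were 37.3%, 36.1% and 43.0% in arthritic and 2.14%, 3.14% and 5.81% in healthy animals. Both classes separated the groups completely, in opposite directions. Il6+ cells were 47.8% ± 4.64 (SD, n = 3) of arthritic and 37.4% ± 0.831 of healthy fibroblasts, and Cd200+ cells were 6.03% ± 1.50 and 9.33% ± 0.563, again without overlap. Lining cells held 6.14% ± 0.480 and 6.62% ± 1.10, and here the animals overlapped. For the 4 classes without overlap the two-sided exact permutation p was 0.1, the smallest that 20 arrangements allow, and 0.125 after adjustment over 5 classes. For the lining class it was 0.7. As shares of UMIs, which set the weights of the split below, Mmp3+ cells held 52.7% against 3.29% and Pi16+ cells 0.964% against 44.9%. The Il6+ class did not keep its separation in UMIs, at 33.6% (29.4% to 38.1%) against 31.0% (30.7% to 31.3%), with an overlap and an exact permutation p of 0.4. Arthritic Mmp3+ cells had median depths of 21884 to 22706 UMIs and the 16, 17 and 24 healthy ones 3548 to 12454, so that a class's cell number and RNA per cell both enter its share.

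**Figure D1:**
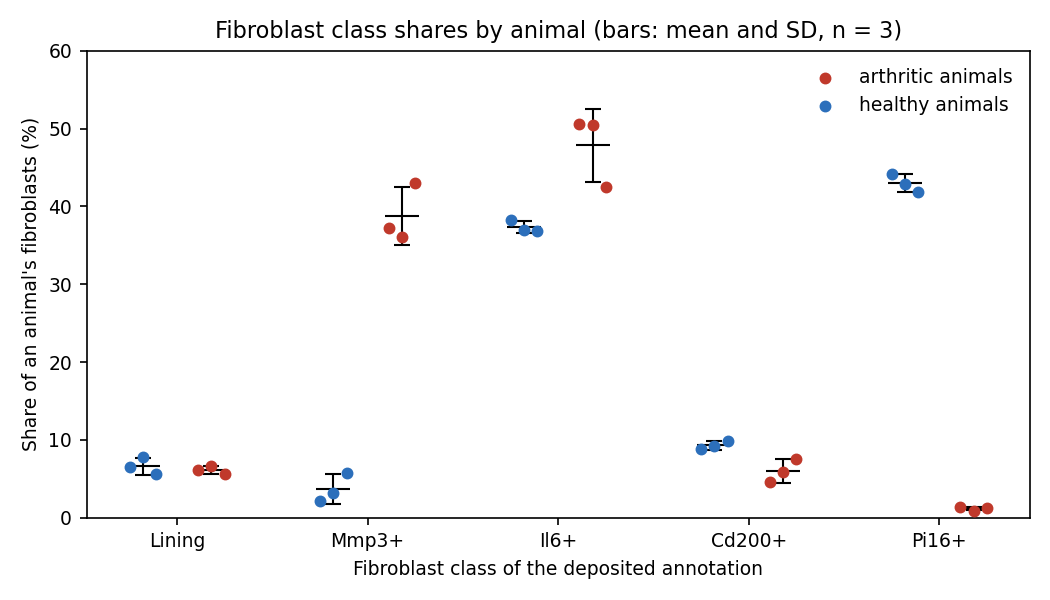
Share of each animal's fibroblasts (%, y axis) in the 5 annotated classes (x axis); red points are the 3 arthritic and blue points the 3 healthy animals, and bars give the mean and SD. Mmp3+ cells rise from 3.70% to 38.8% and Pi16+ cells fall from 43.0% to 1.20%, while lining shares overlap.

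Summed over all classes, 2070 of 14348 genes tested were higher in arthritic animals, 14.4% of them, and 2046 or 14.3% were lower (edgeR quasi-likelihood test, adjusted p under 0.05). To split each change, every animal was given the same class mix, the mean of both groups' UMI shares. The difference that remained on the log2(CPM + 1) scale is called the within-class component, and the rest, up to the whole difference, is called the share component. The 2 components add up to the whole difference on that scale. Whole-sum changes given for single genes are edgeR log2 fold changes, a different measure, so the components need not add up to them. The within-class component passed the limma test for 780 higher (5.44%) and 300 lower genes (2.09%). The share component passed for 236 higher (1.64%) and 535 lower genes (3.73%). With unscaled library totals in place of TMM scaling the within-class calls were 409 higher and 725 lower, since that choice moved the median of all genes from 0.08 to -0.13 on the log2 scale. Whether within-class rises or falls were the more numerous therefore depends on the scaling.

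Each whole-sum call was then counted under the components that passed their test with a size of at least 0.5 on the log2 scale. Of the 2070 genes higher in the whole sum, 555 passed within classes only, 68 through the share only, 65 through both in the same direction and 9 through both in opposite directions, and 1373 met this for neither component. Of the 2046 lower genes the counts were 229, 218, 35, 9 and 1555. On the log2(CPM + 1) scale the rises had a median of 0.71, with medians of 0.55 within classes and 0.18 through the share. The falls had a median of -0.62, with medians of -0.34 and -0.27. Each median was taken separately, so the component medians need not add up to that of the whole. The within-class component was the larger in 77.4% of rises and in 53.7% of falls. Over all genes tested it was the larger in size in 61.0%. Among changes of at least 2 on the log2 scale it was larger in 300 of 344 rises and 192 of 261 falls. All of these were counted with TMM scaling. Unscaled totals moved the within-class median of all genes from 0.08 to -0.13 and left the share median at -0.03.

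The genes that named the classes divided in different ways. Mmp3, stromelysin 1, an enzyme that cleaves proteoglycans and activates collagenases, is at chr9:7445822-7455975 on the plus strand. Its whole-sum level was 15104, 15009 and 15711 CPM in arthritic and 1064, 1290 and 894 CPM in healthy animals, with no overlap. The rise of 3.78 ± 0.21 (log2, SE) divided into 1.57 within classes (adjusted p = 0.00152, limma) and 2.26 through the share (adjusted p = 4.8e-05). Mmp3 was highest in the Mmp3+ class of both groups, whose UMI share was 52.7% in arthritic and 3.29% in healthy animals. A positive share component follows from that by construction and is not a separate result. On the linear scale, 7711 CPM of the rise of 14192 CPM (54.3%, range 6801 to 8656 CPM over the 9 pairings of animals) went with class shares. The largest within-class part, 3905 CPM, lay in the Mmp3+ class itself. Mmp3+ cells gave 82.4% of all Mmp3 UMIs in arthritic animals and 29.1% in healthy ones, where the Il6+ class gave 32.7%.

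Pi16, a secreted peptidase inhibitor at chr17:29317680-29330593, differed little in the whole sum while both components were large. Whole-sum levels were 524, 327 and 362 CPM in arthritic and 653, 607 and 483 CPM in healthy animals, overlapping between groups (log2 -0.56, adjusted p = 0.116, edgeR). Within the Pi16+ class the levels were 4703, 2830 and 3775 CPM against 1530, 1200 and 977, so that every arthritic Pi16+ sum exceeded every healthy one (1.74 ± 0.35, adjusted p = 0.0108, edgeR). The class was made from expression, so the level of Pi16 in it is not independent of the label. In the Il6+ class they were 1007, 569 and 761 against 228, 482 and 300 CPM (1.17 ± 0.29, adjusted p = 0.0232). The within-class component of Pi16 was 1.71 ± 0.18 (adjusted p = 0.00046) and its share component -2.25 ± 0.07 (adjusted p = 4.8e-05). Arthritic Pi16 UMIs came mostly from Il6+ cells, 66.6%, and healthy ones from Pi16+ cells, 81.6%. Only 11, 19 and 24 arthritic Pi16+ cells stand behind these sums. Chondrocytes of the same animals, which should hold little Pi16, had 173 CPM in arthritic and 52.9 CPM in healthy animals, and osteoblasts 15.0 and 24.9 CPM.

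The other genes of the class names moved less. Il6, the pleiotropic cytokine, was at 1829, 1749 and 1915 CPM in arthritic and 1010, 930 and 723 CPM in healthy animals (whole sum 1.00, adjusted p = 0.00045). Neither its within-class component of 0.74 (adjusted p = 0.075, limma) nor its share component of 0.31 (adjusted p = 0.34) passed. Cd200, an inhibitory ligand of myeloid cells, was lower in the whole sum (-0.99, adjusted p = 0.027) with components of -0.80 and -0.20 that did not pass. Prg4, lubricin, overlapped between groups in the whole sum, at 7142 to 10537 CPM in arthritic and 7833 to 13575 CPM in healthy animals.

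**Figure D2:**
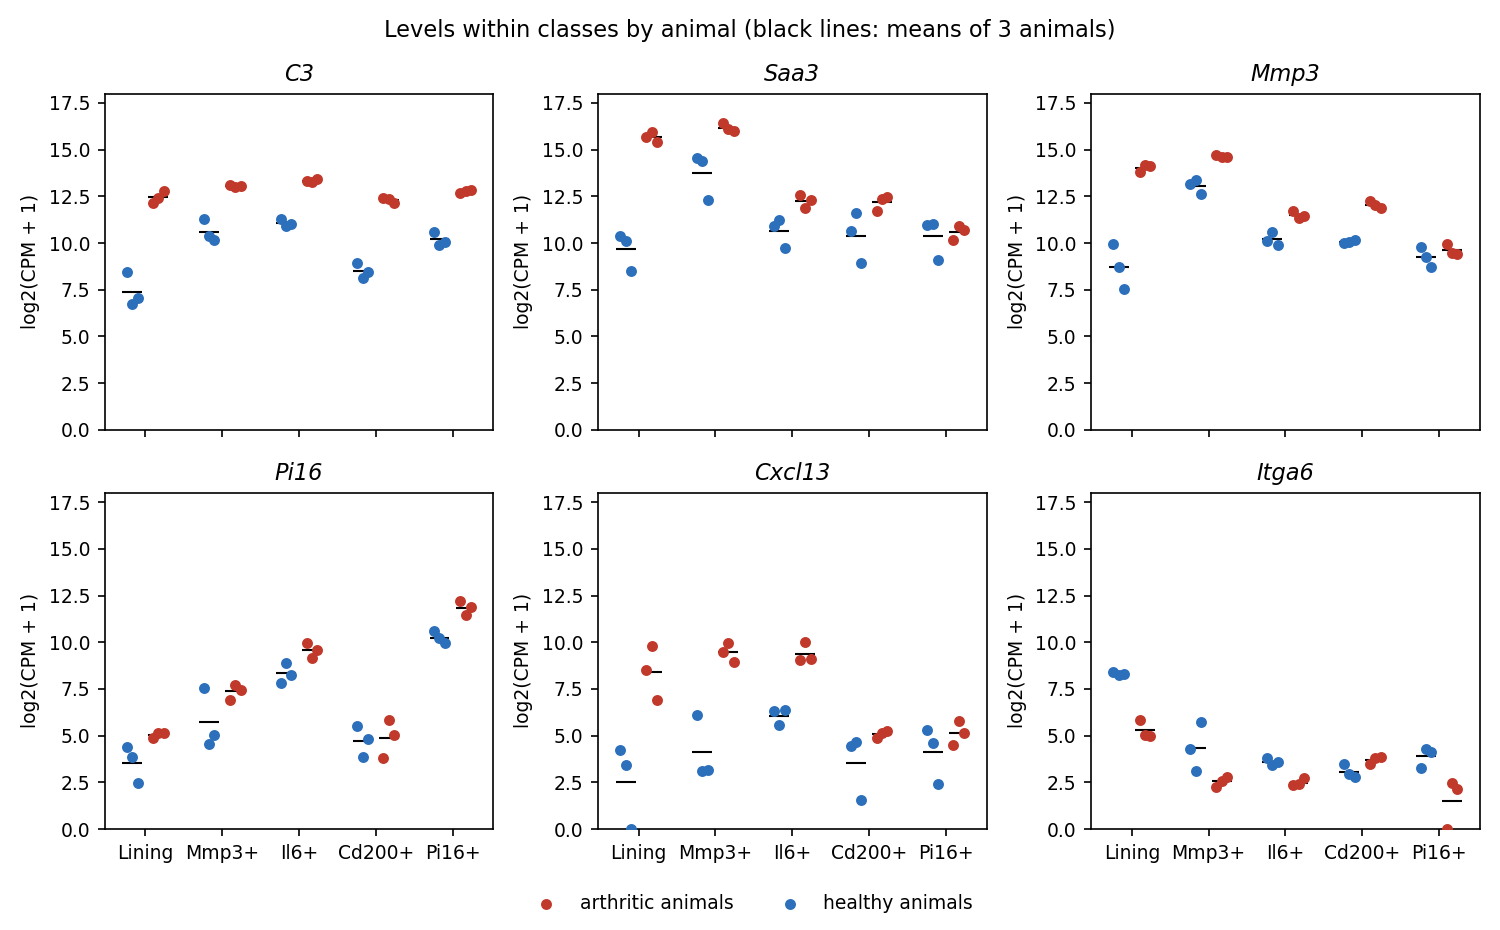
Level (y axis, log2(CPM + 1), TMM-scaled within each class) of 6 genes in each class (x axis) and animal; red points are arthritic and blue points healthy animals, and black lines are means of 3. C3 is higher in all 5 classes, Saa3 and Mmp3 most of all in the lining class, Pi16 in the Pi16+ and Il6+ classes, and Itga6 is lower in the lining class.

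Complement genes, whose products tag targets for immune clearance, rose within classes across the fibroblasts. Of 16 tested, 12 rose and 2 fell in the whole sum, 11 rose and none fell within classes, and 3 rose and 1 fell through the share. The list medians were 1.40 within classes and 0.14 through the share, against 0.08 and -0.03 over all genes tested. Summed complement levels were 16944 to 17336 CPM in arthritic and 4207 to 4653 CPM in healthy animals. C3, the central component, at chr17:57203970-57228136, stood at 8628, 8242 and 8628 CPM against 1466, 1030 and 1129, far apart. Its rise of 2.77 ± 0.19 was 2.53 within classes (adjusted p = 6.3e-05, limma), and 93.3% of the linear rise of 7291 CPM lay within classes. In the lining class C3 was at 4496, 5370 and 7080 CPM against 347, 104 and 132, and in the Pi16+ class at 6429, 6961 and 7207 against 1558, 958 and 1069. It passed in all 5 classes, by 4.78 (lining), 2.27 (Mmp3+), 2.21 (Il6+), 3.74 (Cd200+) and 2.65 (Pi16+). The alternative pathway factor Cfb rose by 2.30 within classes and the classical pathway proteases C1ra and C1s1 by 1.74 and 1.72, though their near copies C1rb and C1s2 can share reads with them. Cd55, which protects cells from complement and is also a Pi16+ class marker, fell in the whole sum (-1.61), with 0.00 within classes and -1.55 through the share. That 0.00 joined opposite differences. Mean Cd55 was lower in the lining (236 against 614 CPM) and Mmp3+ classes (49.9 against 134). It was higher in the Pi16+ (573 against 416), Il6+ (107 against 90.8) and Cd200+ classes (31.7 against 17.2). The level of C3 in other annotated cells also differed, at 4775 against 644 CPM in chondrocytes and 1306 against 304 in osteoblasts, and the part of free RNA in these values was not tested.

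Acute phase and iron genes rose both ways. All 10 tested rose in the whole sum, 9 within classes and 6 through the share, and none fell in any of these. The medians were 1.57 within classes and 1.13 through the share. Saa3, an acute phase protein made outside the liver, at chr7:46711998-46715700, was at 47613, 41088 and 39891 CPM in arthritic and 2113, 2798 and 802 CPM in healthy animals, so that the groups lay far apart. Its rise of 4.45 was 2.35 within classes (adjusted p = 0.015, limma) and 2.32 through the share (adjusted p = 0.0006), and the linear rise divided into 50.6% and 49.4%. Without the cells against their animal's sex its within-class component of 1.98 did not pass (adjusted p = 0.12, limma). Osteoblasts of the same animals held Saa3 at 27821 against 1542 CPM and chondrocytes at 3197 against 2504. Haptoglobin (Hp), which binds free haemoglobin, was at 4476, 6302 and 4462 CPM against 240, 538 and 222, and its rise was more within classes (2.87) than through the share (1.16). Lipocalin 2 (Lcn2), which withholds iron from bacteria, rose by 1.75 within classes and 2.24 through the share. Orm1 passed within classes (2.78, but 2.24 and adjusted p = 0.095 in limma without the cells against their animal's sex) and Saa1 did not (-0.21), its whole-sum rise of 1.80 going with the share (2.58). Reads of Saa1 and Saa2, and of Orm1 and Orm2, are hard to tell apart. Fth1, the ferritin heavy chain that stores iron, counted outside this list, rose from 7004 to 32885 CPM, with 55.0% of the linear rise within classes.

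Chemokine and cytokine genes rose within classes and, in smaller number, through the share. Of 24 tested, 14 rose and 1 fell in the whole sum, 10 rose and none fell within classes, and 6 rose and 3 fell through the share. Cxcl13, the chemokine that draws B cells, at chr5:95956951-95961068, had a larger within-class rise than any other gene named for that component. It was at 568, 932 and 444 CPM against 43.3, 25.9 and 26.0, and its rise of 4.29 was 3.73 ± 0.32 within classes (adjusted p = 0.00014, limma) and 0.55 through the share. The lining class had 369, 896 and 117 CPM of Cxcl13 against 17.6, 9.69 and 0, the Mmp3+ class 713, 1009 and 500 against 68.3, 7.53 and 7.91, and the Il6+ class 532, 1016 and 545 against 77.5, 45.8 and 81.7. Chondrocytes held 37.3 against 25.4 CPM and osteoblasts 66.1 against 22.8. The neutrophil attractant Cxcl5 rose by 2.00 within classes and Cxcl12, which retains leukocytes around vessels, by 1.55, the latter in all 5 classes. Cxcl1, Cxcl2 and Ccl2 did not pass in the whole sum, with values of 0.14, 0.12 and -0.12. Leukocyte markers summed to 17.9 to 27.4 CPM in arthritic and 3.94 to 5.94 CPM in healthy fibroblasts and neutrophil markers to 46.2 to 57.7 CPM and at most 17.1 CPM. These sums moved with the inflammatory lists, and their part in the results was not tested.

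Other large within-class rises included a signal to osteoclasts and an oxidase. Tnfsf11 (RANKL), which drives osteoclast formation, was at 151, 136 and 172 CPM in arthritic and 11.5, 5.83 and 7.09 CPM in healthy animals. It rose by 2.88 within classes (adjusted p = 0.0003, limma) and 1.24 through the share, and 86.0% of arthritic Tnfsf11 UMIs were in Mmp3+ cells. Of 5 osteoclast signal genes tested, 2 rose and 1 fell in the whole sum. Only Tnfsf11 passed within classes, where the list median was -0.01. Cybb, the catalytic subunit of the phagocyte NADPH oxidase, was at 39.7, 53.5 and 59.8 CPM against 1.63, 2.43 and 1.18 and rose by 3.16 within classes, a component that did not pass without the cells against their animal's sex (2.58, adjusted p = 0.13, limma). Chl1, an adhesion molecule of the L1 family, was at 452, 376 and 401 CPM against 17.5, 17.5 and 13.4 and rose by 3.25 within classes. Fabp7 and Ctla2a also passed, with arthritic levels of 24.4 to 90.2 and 124 to 320 CPM against at most 2.79 and 27.9 CPM. Interferon response genes gave 14 rises and 1 fall of 28 in the whole sum and 9 rises within classes, with the immunity-related GTPase Iigp1 (2.46 within classes) passing in all 5 classes. Antigen presentation genes gave 8 rises of 11, 5 of them within classes, among them H2-K1 (1.36) and B2m (1.16), the chains of MHC class I.

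Matrix genes divided by kind. Of 16 genes of matrix degradation 10 rose and 2 fell in the whole sum, with 9 rises and 1 fall within classes. Mmp13, a collagenase, rose by 1.42 within classes (0.86 and adjusted p = 0.39 without the cells against their animal's sex, limma) and 1.39 through the share, while Timp3, an inhibitor of metalloproteinases, fell by 2.42 in the whole sum, with -0.76 within classes (not passing) and -1.57 through the share. Of 18 collagen genes 8 rose and 1 fell within classes, against 2 and 2 through the share, with Col4a1 (1.06) and Col12a1 (1.27) among the rises. Of 18 genes of elastic fibres and basement membrane 10 fell and 4 rose in the whole sum. Within classes 7 rose, such as the laminin chain Lamb1 (1.85) and Emilin1 (1.46), and 1 fell, Eln, elastin (-1.38). Through the share 11 fell and none rose, with a median of -0.60.

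Genes of glycolysis and the hypoxia response passed mostly through the share. Of 22 tested, 14 rose and 1 fell in the whole sum, 13 rose and 1 fell through the share, and none rose and 1 fell within classes. The medians were 0.14 within classes and 0.54 through the share. Pkm, pyruvate kinase, was at 409, 434 and 504 CPM in arthritic and 181, 191 and 193 CPM in healthy animals, without overlap. Its rise of 1.21 was 0.32 within classes (adjusted p = 0.12, limma) and 0.93 through the share (adjusted p = 0.00097), and 72.8% of the linear rise of 261 CPM went with shares. In the lining class Slc2a1 (2.04), Slc16a3 (1.22), Pkm (1.04) and Pgk1 (0.97) rose, and the fall within classes was Ankrd37 (-1.42). Pooled over animals without scaling, Ankrd37 was at 8.56 against 43.6 CPM in the Mmp3+ class, on 23 healthy UMIs. It was higher in the arthritic lining and Cd200+ classes and lower in the Il6+ and Pi16+ classes. The within-class component gives the Mmp3+ class, with 57 healthy cells, a weight of 28.0%. With the lining, Il6+ and Cd200+ classes alone that component of Slc16a3 was 1.04 (adjusted p = 0.0068, limma). The glucose transporter Slc2a1, at 73.0, 73.3 and 76.4 CPM against 30.9, 33.5 and 26.4 in the whole sum, had a share component of 0.88.

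Among single genes, 6 had the largest rises through the share: Nos2, Saa1, Mmp3, Lcn2, Slc7a2 and Slc16a3. Nos2, inducible nitric oxide synthase, was at 114, 186 and 287 CPM against 22.8, 46.2 and 29.2. Its share component was 3.16 (adjusted p = 0.00093, limma) and its within-class component -0.65 (adjusted p = 0.14). Mmp3+ cells held 80.9% of Nos2 UMIs in arthritic and 62.6% in healthy animals. For genes held mostly by Mmp3+ cells a positive share component follows by construction, as for Mmp3. In the Mmp3+ class Nos2 was at 200, 291 and 468 CPM in arthritic and 652, 583 and 467 in healthy animals (-0.90, adjusted p = 0.171, edgeR), while in the lining class it was at 163, 348 and 309 against 29.3, 25.4 and 0 (3.64). The healthy Mmp3+ values rest on 57 cells. With the lining, Il6+ and Cd200+ classes alone, which hold 23 or more cells in every animal, the within-class components of Nos2, Slc7a2 and Slc16a3 were 2.46, 1.22 and 1.04, so that their direction within classes depends on the thin classes.

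Most genes of the Pi16 programme fell through the share, 16 of the 535 falls in that component. The list was written for the Pi16+ class, which held 0.964% of UMIs in arthritic and 44.9% in healthy animals. Genes highest in that class have a negative share component by construction, so this count is not a separate result. Of 18 tested, 14 fell and none rose in the whole sum, and 16 fell and none rose through the share, with a median of -1.42. Within classes 3 rose (Pi16, Ly6c1 and Ly6a) and 4 fell (Pcolce2, Uchl1, Smpd3 and Efhd1). The list's summed level was 3425 to 3651 CPM in arthritic and 5343 to 5605 CPM in healthy animals. Dpp4, a surface peptidase, was at 3.05, 2.16 and 2.16 CPM against 24.7, 16.5 and 21.5 (whole sum -3.18), with a share component of -3.11 and 0.45 within classes (adjusted p = 0.41, limma). In the Pi16+ class its levels overlapped, 92.5, 44.6 and 40.7 CPM against 61.4, 42.3 and 52.2. Cd34, a marker of progenitors, fell from 555 to 145 CPM with -1.59 through the share and -0.34 within classes (not passing). Ccn3, a matricellular protein, fell both ways, by 1.15 within classes and 2.21 through the share, as did Smpd3 (-1.50 and -2.08) and Efhd1 (-1.23 and -2.13). Engase and Tek passed through the share only, at -2.21 and -2.07 beside within-class values that did not pass.

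In 6 genes the components passed in opposite directions and were the largest of that kind: Pi16, Ifi27l2a, Enpp1, Tgfbr2, Dpep1 and Galnt16. Tgfbr2, a TGF-beta receptor, was at 122, 138 and 119 CPM against 172, 153 and 142 in the whole sum, a fall of 0.34. Within classes Tgfbr2 rose by 0.98 (adjusted p = 0.00069, limma) and through the share it fell by 1.28. Tgfbr2 was higher in the Pi16+ class (637, 530 and 586 against 317, 235 and 237 CPM; 1.28) and the Il6+ class (0.56), and lower in the lining class (-0.82). Enpp1, which makes pyrophosphate and so limits mineral deposition, went the other way, at 30.7, 29.0 and 35.1 CPM against 29.7, 36.0 and 26.0 in the whole sum. Enpp1 had a within-class component of -1.16 and a share component of 1.22. None of Pi16, Ifi27l2a, Enpp1, Dpep1 and Galnt16 passed in the whole sum.

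Most lining genes fell within classes, 9 of the 300 falls in that component. Of 14 lining genes 9 fell and 2 rose both in the whole sum and within classes, with a median of -0.73 within classes and -0.11 through the share, where 2 rose and 2 fell. Itga6, the laminin-binding integrin alpha 6, at chr2:71745616-71858416, was at 8.44, 7.70 and 8.06 CPM against 55.4, 50.7 and 41.0, and 96.9% of its linear fall of 41.0 CPM lay within classes. Clic5, a chloride channel protein, fell by 2.40 within classes and Htra4, a serine protease, by 2.58. Prg4 itself did not pass within classes (-0.38, adjusted p = 0.3, limma). The rises were Thbs4, a matricellular protein (1.42), and Vcam1, the adhesion molecule of leukocytes (0.68). Other named falls within classes were Scg3 (5.63, 5.35 and 5.46 CPM against 91.3, 66.3 and 88.7), Hhip, Col15a1, Slurp1 and Npy. Without the cells against their animal's sex the within-class component of Slurp1, -2.19, did not pass (adjusted p = 0.12, limma). All 8 keratinocyte markers tested fell in the whole sum. They summed to 96.5 to 111 CPM in arthritic and 229 to 483 CPM in healthy fibroblasts, and bone markers to 78.3 to 203 and 382 to 574 CPM. Slurp1 was at 190 CPM in healthy chondrocytes and 2.67 CPM in arthritic ones, and the part of such RNA in the fall of Slurp1 was not tested.

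**Figure D3:**
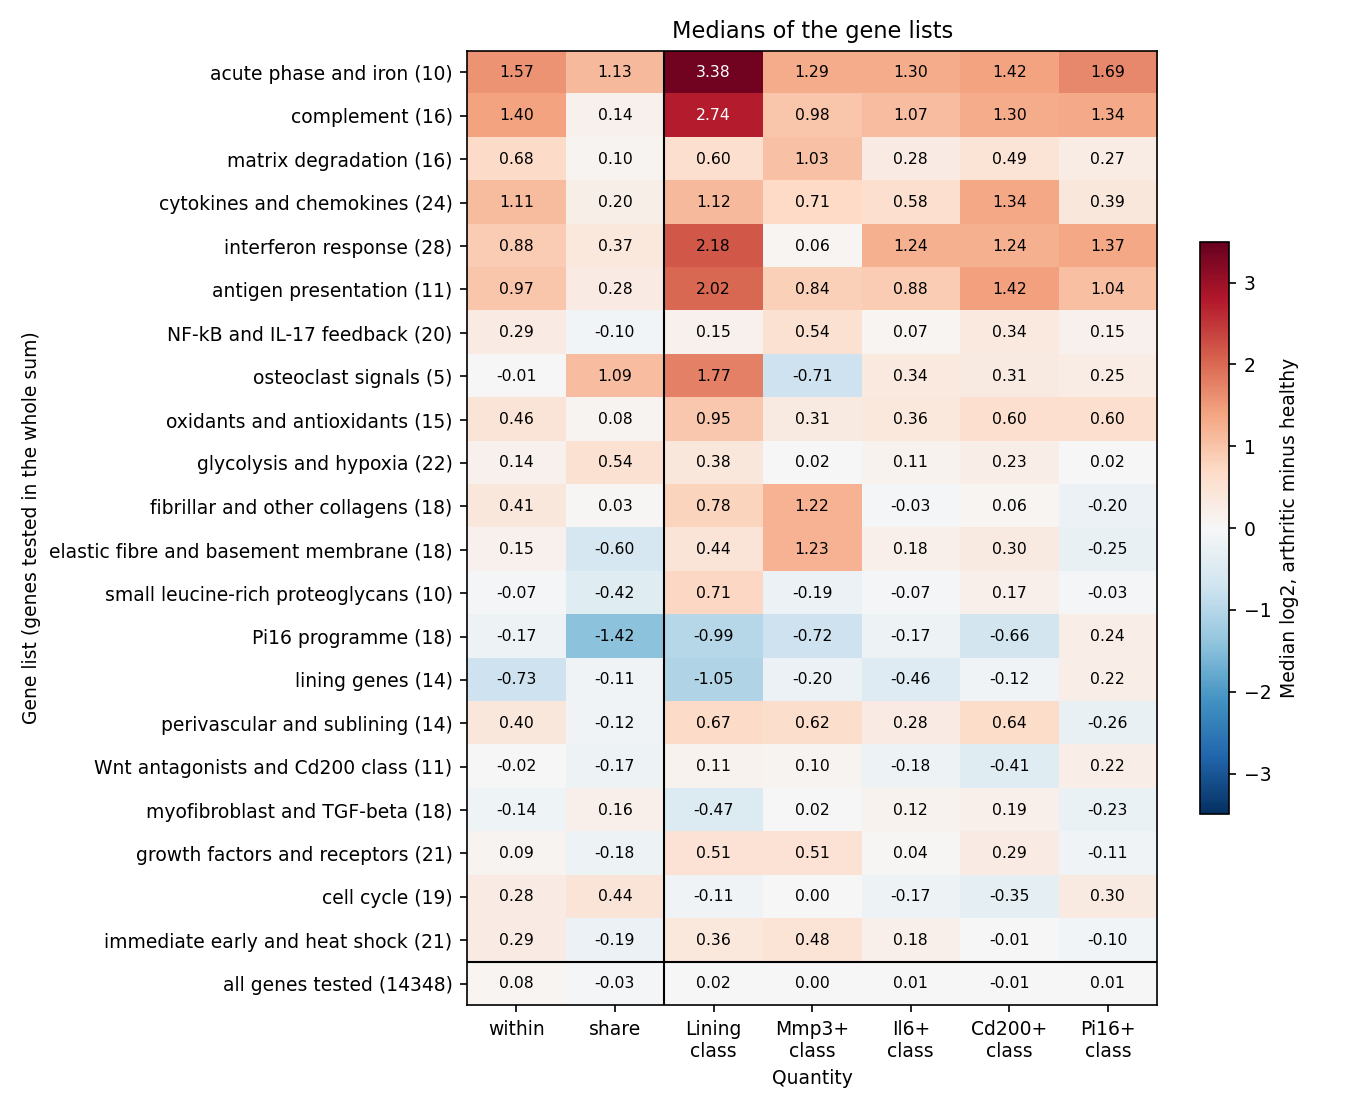
Median difference (log2, arthritic minus healthy, colour and number) of each gene list (rows, with genes tested in the whole sum) for the within-class and share components and in the fit of each class (columns). A gene with no UMI in a group was set to its bound, or to 0 where that was below 1-fold. Acute phase genes stand at 3.38 in the lining class, glycolysis at 0.54 and the Pi16 programme at -1.42 in the share component.

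In the lining class, whose share of cells overlapped between groups, inflammatory genes rose and lining genes fell. Of 10103 genes tested in it, 686 (6.79%) were higher and 643 (6.36%) lower in arthritic animals. The rises took in acute phase genes, 8 of 10 with a list median of 3.38, complement, 8 of 10 with 1 fall and a median of 2.74, and interferon response genes, 16 of 28 with 2.18. Hp was at 15152, 17967 and 16381 CPM in arthritic lining sums and 139, 471 and 184 in healthy ones (5.92 ± 0.38), and Lcn2 at 7482, 11114 and 8399 against 168, 149 and 26.9 (6.18 ± 0.49), without overlap. Mt3, a metallothionein that binds zinc, had 994 UMIs against 4 (6.40, adjusted p = 6.16e-07, edgeR). Car4, a membrane carbonic anhydrase, had 383 UMIs in the arthritic and none in the healthy lining sums, which puts it at least 39.1-fold higher with a floor of 3 UMIs over the group. Lining genes fell in the lining class itself, 9 of 14 with 1 rise, Cd9 and Hbegf among them. Hhip, an inhibitor of hedgehog signals, was at 12.4, 8.52 and 19.4 CPM against 162, 147 and 193, and Pcsk6, a proprotein convertase, at 127, 86.2 and 53.0 against 806, 793 and 991. Vwa1, a matrix protein, and Itga6 fell by 3.18 and 3.12. The sublining collagen Col3a1 (1.75) and Dcn (1.00) rose in it, while Thy1 stayed at 5.37 CPM or less in every animal. Bone markers in this class summed to 40.2 to 96.8 CPM in arthritic and 359 to 808 CPM in healthy animals, mural markers to 186 to 210 and 381 to 725 CPM, and Schwann cell markers to 31.4 to 40.1 and 149 to 190 CPM. Cartilage markers were also lower without overlap, at 376 to 559 against 696 to 980 CPM, and neutrophil markers were higher, at 30.6 to 44.2 against 8.97 to 12.1 CPM. The part of these markers in the changes of the lining class was not tested.

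The Mmp3+ class had 618 higher (4.85%) and 254 lower genes (1.99%) of 12751 tested, against only 57 healthy cells. The split by direction depended on scaling, with 562 higher and 685 lower in DESeq2 and 446 and 316 with RLE scaling in edgeR. Cxcl13 (4.96), Tnfsf11 (3.72) and Ctla2a (4.58) rose, with 15, 13 and 10 healthy UMIs behind them. The last, Ctla2a, did not pass without the cells against their animal's sex (4.64, adjusted p = 0.14, edgeR). Il1rl1, the IL-33 receptor, had 2312 UMIs in arthritic and 3 in healthy sums. Collagens gave 10 rises and 2 falls of 18 (median 1.22), for example Col1a1 at 3054, 3290 and 3247 CPM against 1061, 1182 and 1123, and genes of elastic fibres and basement membrane 7 rises of 18. Il17ra, a subunit of the IL-17 receptor, rose by 1.97, from 11.9 to 18.6 CPM in healthy animals to 55.9 to 67.8 CPM in arthritic ones. Slurp1 (-5.51), Stmn2 (-4.23), Col15a1 (-3.61) and Pcolce2 (-3.55) fell, the last, a helper of procollagen cleavage, from 484, 369 and 316 to 35.3, 34.8 and 33.8 CPM. Interferon response genes gave 2 rises of 28, with a median of 0.06. Keratinocyte markers summed to 81.9 to 90.8 CPM in arthritic and 149 to 482 CPM in healthy Mmp3+ sums and neutrophil markers to 60.2 to 89.5 and 22.6 to 43.4 CPM, and their part was not tested.

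The Il6+ class, the largest in cells in both groups together, had 421 higher (3.68%) and 369 lower genes (3.23%) of 11439. Chl1 was at 385, 205 and 304 CPM against 23.7, 24.5 and 32.0 (3.45 ± 0.27), and Il33, an alarmin, at 239, 127 and 212 against 43.4, 28.3 and 38.8 (2.33). Serpina3f, a protease inhibitor, and Plac8 rose by 2.85 and 2.70. Complement gave 9 rises of 15 with a median of 1.07. Il6 itself, at 2589, 2273 and 2963 CPM against 2005, 1901 and 1567, did not pass in this class (0.47, adjusted p = 0.113, edgeR), although the groups did not overlap. Col15a1, a basement membrane collagen, fell from 134, 123 and 103 to 20.8, 31.2 and 32.0 CPM, and Ckb, brain-type creatine kinase, Aff3 and Ccn3 fell by 2.21, 2.29 and 2.04. Neutrophil markers in this class summed to 30.2 to 35.6 CPM in arthritic and 15.3 to 19.8 CPM in healthy animals, and bone markers to 75.9 to 88.0 and 124 to 212 CPM, and their part was not tested.

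The Cd200+ class had 223 higher (2.41%) and 173 lower genes (1.87%) of 9264. C3 was at 5375, 5264 and 4559 CPM against 482, 279 and 348, without overlap. Matn4, a matrix adaptor, and Ecscr rose by 3.46 and 3.44. Among the falls were Chad, chondroadherin, a protein of cartilage, at 328, 120 and 286 CPM against 1314, 1183 and 950, Ibsp, bone sialoprotein, a protein of mineralised matrix, at 117, 115 and 354 against 558, 2809 and 1483, and the Wnt antagonist Wif1 (-2.17). Npy, a neuropeptide, and Ckb fell by 3.31 and 2.43. Bone markers summed to 320 to 714 CPM in arthritic and 2649 to 4852 CPM in healthy Cd200+ sums, and their part in these falls was not tested. Of the bone markers 4 of 6 tested fell in this class and of the cartilage markers 2 of 5. Of 7 muscle markers tested 5 rose, with a median of 1.80, and the muscle markers summed to 140, 599 and 720 CPM in arthritic and 98.5 to 167 CPM in healthy Cd200+ sums, overlapping between groups, and their part in the rises was not tested. Cd200 itself stood at 80.6, 249 and 195 CPM against 370, 378 and 348, without overlap but not past the test (-1.03, adjusted p = 0.108, edgeR).

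The Pi16+ class, with 54 arthritic cells, had 141 higher (2.28%) and 71 lower genes (1.15%) of 6187. Serpina3n, a protease inhibitor of the acute phase, was at 2286, 1872 and 1542 CPM against 191, 197 and 228 (3.34 ± 0.32), and Iigp1 at 142, 201 and 315 against 27.9, 18.2 and 18.7 (3.48 ± 0.36). Lgi2 and Chl1 rose by 3.66 and 3.45, and complement gave 7 rises of 10. Its Pi16 programme genes did not share the falls of the whole sum, with 4 rises, 1 fall and a median of 0.24 over 18 genes. The class was made from expression, so the levels of these genes in it are not independent of the label. Smoc2, a matricellular protein, fell from 627, 496 and 544 to 5.44, 134 and 105 CPM, and Scg3, a granin of secretory granules, from 184, 136 and 155 to 5.44, 22.3 and 6.78. Fmo2, a monooxygenase, fell on 4 arthritic UMIs, and Tac1 and S100g had 1 and 3 arthritic UMIs beside 583 and 437 healthy ones. Muscle markers reached 4301 CPM in an arthritic Pi16+ sum, against at most 251 CPM in healthy ones.

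Whether a change was equal among classes was tested directly, with each animal as a block. It was unequal for 962 of 10594 genes, 9.08% (edgeR quasi-likelihood F test). Leading that test was Fbln5, an elastic fibre protein, which was at 62.1, 47.3 and 42.2 CPM against 305, 354 and 330 in the lining class (-2.77 ± 0.31) and overlapped between groups in the Il6+ class (124, 132 and 126 against 124, 99.2 and 104). Fth1 rose in all 5 classes but by 2.75 in the lining class and 0.85 to 1.33 in the others. The complement protease C1s1, the antioxidant enzyme Sod2, the collagen Col5a2 and C1ra had lining rises of 4.04, 2.32, 1.91 and 3.40 and smaller values in each other class. Glul, glutamine synthetase, fell in the lining class (-0.97) and rose in the Cd200+ class (0.78). Ptges, the prostaglandin E synthase, rose in the lining (3.01) and Mmp3+ classes (1.77), with values of -0.02 and -0.35 in the Il6+ and Cd200+ classes that did not pass. In the Pi16+ class Ptges was at 32.7, 40.1 and 74.5 CPM against 103, 110 and 128, without overlap but not past the test (adjusted p = 0.219, edgeR). Anxa3 fell in the lining class (-2.66), and Pcolce2 in the lining (-3.08), Mmp3+ (-3.55) and Il6+ (-1.07) classes, with -1.09 and -0.24 in the Cd200+ and Pi16+ classes, which did not pass. By list, 13 of 17 collagen genes tested, 11 of 18 Pi16 programme genes and 8 of 12 complement genes were unequal.

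**Figure D4:**
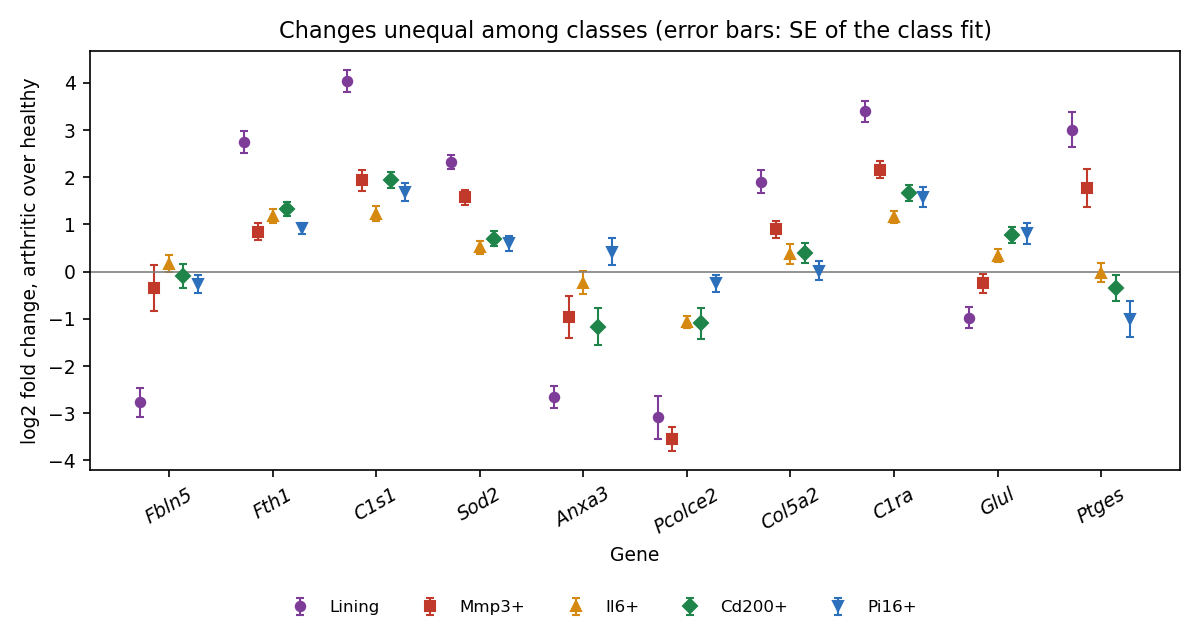
Change (y axis, log2, arthritic over healthy) in each class (colours and symbols) of the 10 genes (x axis) with the smallest adjusted p in the test of unequal change; bars are the SE of the class fit. The lining class stands apart in most of them, lowest in Fbln5, Anxa3 and Glul and highest in Fth1, C1s1, Sod2, Col5a2, C1ra and Ptges.

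Other lists gave fewer or mixed changes. Of all genes tested 14.4% rose and 14.3% fell in the whole sum. Cell cycle genes gave 1 rise and 1 fall of 19 in the whole sum and none in either component. Immediate early and heat shock genes, which respond to tissue dissociation, gave 1 rise and 5 falls of 21 in the whole sum and 2 rises and 1 fall within classes. Through the share 6 of them fell and none rose, where 3.73% of all genes tested fell. Median mitochondrial shares were 2.29% to 2.36% in arthritic and 1.71% to 2.14% in healthy animals. NF-kB and IL-17 feedback genes gave 5 rises and 3 falls of 20 in the whole sum, and 7 rises within classes (among them Tnfaip3, 0.57, and Traf1, 1.41) beside 6 falls through the share. Growth factors gave 9 rises and 6 falls of 21 in the whole sum, each a larger part than among all genes tested. Of 14 perivascular and sublining genes 6 rose and 1 fell within classes. Gas6 of that list, a ligand of the TAM receptors, was at 903, 955 and 837 CPM against 310, 243 and 297, with 1.69 within classes and -0.03 through the share, and past the test in all 5 classes.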

How the data were processed

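Single-cell RNA libraries of 3' transcript ends (10x Genomics chemistry) were made from hashtagged synovial cells, hyper-loaded into wells, per the labels' protocols. The deposited matrices hold raw UMI counts of 32285 genes, made with Cell Ranger 6.0.0 per the file headers (6.0.6 and build mm10 per the submitters' processing notes). The authors' annotation gave animal and class. It also held a mitochondrial fraction and a stress score as the authors computed them, and the steps behind classes, filters and doublet removal are not given in the sources used here. No doublets were removed here. Counts were summed per animal, and per animal and class with at least 10 cells. Animals, separate mice per the labels, were the replicates. Sums were tested with edgeR 4.0.16 (R 4.3.3; TMM, filterByExpr, quasi-likelihood, Benjamini-Hochberg, threshold 0.05) over the 12 animals of the unsorted libraries, so that 4 groups share 1 spread. CPM values are TMM-scaled per 1000000 UMIs.

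The components used limma 3.58.1 (trend) on log2(CPM + 1) over the 6 animals, with 1 TMM factor per animal and common class weights of 10.1% (lining), 28.0% (Mmp3+), 32.3% (Il6+), 6.65% (Cd200+) and 22.9% (Pi16+). The class by group test used 30 sums with the animal as a block. A difference on the log2(CPM + 1) scale understates changes of low genes. Class medians of lists set genes with no UMI in a group to a bound from a floor of 3 UMIs, which lowered, for example, the fitted median of complement in the Mmp3+ class from 2.28 to 0.98. The linear split averaged the 9 pairings of animals. The main edgeR, component and class by group fits were also run on simulated counts, and the alternatives were not. Those counts held no animal or library effects, so they could not test how the fits handle such effects. Gene positions are of GENCODE vM21 (GRCm38).

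Genes were named by rule: genes of the class names, the 8 largest rises and falls within classes, the 6 largest each way through the share, the 6 largest with opposite components, 4 each way in each class, the 10 most unequal among classes, and up to 4 per list. Members and lists were chosen with earlier results of these data known, so counts over lists are descriptions. Further list or marker genes were named after their values were seen: Ccl2, Cd34, Cd55, Cd9, Col1a1, Col3a1, Cxcl1, Cxcl2, Dcn, Hbegf, Ibsp, Ly6a, Ly6c1, Pgk1, Pkm, Smoc2, Thbs4, Thy1, Timp3, Tnfaip3 and Vcam1. Some genes that the rule names are not reported here. Alternatives covered scaling, filters, weights, pseudocounts, tools, library and sex-linked filters, each animal left out, and equal depth.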

Additional observations from a re-analysis of the deposited data

Results flagged for a closer look

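The 10 genes whose change was most unequal among the 5 classes are given with the adjusted p of the edgeR test of the class by group term: Fbln5 (1.1e-11), Fth1 (2.3e-11), C1s1 (2.3e-11), Sod2 (2.93e-11), Anxa3 (8.92e-11), Pcolce2 (1.43e-10), Col5a2 (6.59e-10), C1ra (1.74e-09), Glul (2.1e-09) and Ptges (2.25e-09). What drew attention was that the arthritic difference in 1 class departed from that in others, by a test of the difference itself. In 9 of the 10 the lining class held the largest change in size, and in Pcolce2 the Mmp3+ class did. Lining and Mmp3+ arthritic cells were also the deepest, with median depths of 21034 to 23015 and 21884 to 22706 UMIs, and the part of depth was not tested.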

How the results depend on the processing

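Of 261 gene results past their test, 217 passed without each animal in turn, 229 after removal of cells against their animal's sex, and 189 of 251 with healthy animal 1 alone, and none of these turned direction. A library term kept 96 of 126, unscaled totals 121 of 125, and a common mix of the 3 well-filled classes alone 110 of 125. The last choice and the unscaled totals were made after seeing the data.

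With healthy animal 1 alone and with a library term, the calls of the whole sum fell from 4116 to 2259 and 2317, of the lining class from 1329 to 609 and 613, of Mmp3+ from 872 to 292 and 293, of Il6+ from 790 to 117 and 99, of Cd200+ from 396 to 95 and 100, and of Pi16+ from 212 to 31 and 22. The within-class calls fell from 1080 to 645 and the share calls from 771 to 420 with healthy animal 1 alone. At an equal 119721 UMIs per sum, where fewer genes were tested, edgeR called 21 (lining), 0 (Mmp3+, with 145 of 2071 at an unadjusted p below 0.05), 1 (Il6+), 16 (Cd200+) and 3 (Pi16+). Without a filter on low counts the calls were 1350 (Il6+), 772 (Cd200+), 477 (Pi16+), 530 (within), 462 (share) and 1646 (class by group, 962 as reported), and with at least 20 cells 62 (Pi16+). With other class weights the share calls were 1366 (cell shares), 1475 (equal) and 2031 (healthy mix), and they were 399 after the sex-linked filter. With the lining, Il6+ and Cd200+ classes alone there were 1730 within-class and 2546 share calls, and the components of Nos2 (2.46), Slc7a2 (1.22) and Slc16a3 (1.04) within classes and of Slurp1 (-1.11), Il33 (-0.36) and Sfrp2 (-0.37) through the share turned sign. The cause was not tested.

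Leaving out 1 animal gave 3125 to 3674 calls (whole sum), 958 to 1197 (lining), 651 to 831 (Mmp3+), 411 to 695 (Il6+), 192 to 358 (Cd200+), 118 to 174 (Pi16+), 480 to 1208 (within), 332 to 596 (share) and 616 to 853 (class by group). Counts moved by over 1.5 times without arthritic animal 3 (class by group 616, Cd200+ 233, Il6+ 458, Pi16+ 120, within 480, share 332), arthritic 2 (Cd200+ 192, within 578, share 386), arthritic 1 (within 537, share 384), healthy 2 (Il6+ 411, Pi16+ 124, share 489) and healthy 3 (Cd200+ 224, Il6+ 429, Pi16+ 118, share 502). Differences in cell shares stayed at -42.3 to -41.2 (Pi16+), 33.0 to 36.5 (Mmp3+), 9.11 to 13.2 (Il6+) and -4.08 to -2.59 percentage points (Cd200+), and the lining difference of -0.483 ranged from -1.01 to 0.086, positive without healthy animal 2. The animals carry no shared pair numbers across groups. Dropping the animal as a replicate block left 738 class by group calls.

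Limits: arthritic animals came from 1 library, and thin healthy Mmp3+ and arthritic Pi16+ sums limit both components. The classes were made by the authors from expression, which the split takes as given. Free RNA and doublets of hyper-loaded wells were not removed.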
